A study of Arabidopsis thaliana with 8 samples.

Results

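The NAC transcription factors, together with VOZ1 and VOZ2, were followed in seedlings of the voz1 voz2 double mutant and of wild type Arabidopsis thaliana. The set holds 60 genes, 58 NAC genes and the 2 VOZ genes, listed by locus identifier as members of these families, of the 25665 loci named on the array. The list was drawn up with earlier results of these data known, though its rule uses no measured value. Each of the 60 was represented by 1 probe. Total RNA of whole seedlings was hybridised to 8 one-colour (Cy3) Agilent arrays, 4 of voz1 voz2 and 4 of wild type (wt). Both genotypes are in the Col-0 background and were 14 days old, untreated, and raised on MS agar at 22 °C in 16 h light and 8 h dark. The voz1 voz2 plants carry disruptions of both VOZ genes. The sources used here do not give the alleles, the number of seedlings per sample, or whether replicates were grown separately. All p-values therefore refer to the spread among these arrays, which could be technical. In whole seedlings fewer cells of a type and less RNA per cell cannot be told apart.

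A level here is the log2 of a probe's background-subtracted signal minus the 75th percentile of its array, so levels of different probes are not set against each other. Levels by array are given in the order of replicates 1 to 4. A fold change is voz1 voz2 minus wild type on that scale. Adjusted p-values come from limma with Benjamini-Hochberg adjustment over 24599 features tested, with a threshold of 0.05. A feature is a named locus, by its brightest probe, or a single probe without a locus name. Shares and medians of all genes below are over this mixed set. Between 60.4% and 70.3% of probes were well above background per array, none was saturated, and the number of arrays limits the precision. The arrays lay on 2 slides, replicates 1 and 3 on slide 1 and replicates 2 and 4 on slide 2, each slide with 2 arrays of each genotype. The 10 root markers and 6 shoot markers were well above background on all 8 arrays, and none of the 16 passed the threshold. The mean of the root markers was 0.084 to 1.07 on the voz1 voz2 arrays, against -1.43 to 0.40 on the wild type arrays, with wild type replicate 4 the lowest, and 8 of the 10 had fold changes above 0. That of 5 shoot markers with a value on every array was 3.73 to 4.23 in voz1 voz2, against 3.89 to 4.31 in wild type. Of the 6 shoot markers 1 had a fold change above 0, and of all genes tested 47.2% did.

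NAC proteins, named after NAM, ATAF and CUC, are one of the large transcription factor families of plants. They bind DNA through a conserved N-terminal NAC domain, while the C-terminal part differs between members and activates or represses transcription. Some members carry a membrane anchor at the C terminus and are held at the endoplasmic reticulum or another membrane until they are released, others switch on secondary wall formation in xylem, set organ boundaries, or drive and delay leaf senescence. VOZ1 and VOZ2 are zinc-finger proteins whose DNA-binding region is related to the NAC domain, and they are known to act with phytochrome B and to promote flowering.

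The VOZ genes themselves were measured first, as the check of the genotype labels. VOZ2 (AT2G42400) stood at -3.93, -4.90, -3.84 and -4.36 on the 4 voz1 voz2 arrays, against 1.52, 1.09, 1.83 and 1.50 on the 4 wild type arrays. The groups lay far apart, at -5.74 (SE 0.27, 95% interval -6.35 to -5.14, limma adjusted p = 1.0e-04), and the probe remained well above background on every array of the mutant. With normexp the fold change was -4.29. VOZ1 (AT1G28520) stood at -0.98, -1.25, -0.93 and -0.86 in voz1 voz2, against 0.46, 0.49, 0.45 and 0.59 in wild type, a fall of 1.50 (SE 0.13, 95% interval -1.80 to -1.20, adjusted p = 0.00154). The wild type values of VOZ1 spanned a narrow range on both slides, and the 4 mutant values were all below them. The sources used here do not place the probes relative to the disruptions, so neither value can be read as a measure of intact transcript. Of the 4 protein-coding genes nearest to each VOZ locus in RefSeq's gene order, 2 on either side, 3 were tested at each locus and none passed the threshold. Those beside VOZ1 had fold changes of -0.0035, -0.0012 and 0.13, and those around VOZ2 of 0.094, 0.56 and 0.53, the last being LBD16, a regulator of lateral root formation.

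Of the 58 NAC genes 55 could be tested, and 4 passed the threshold. ANAC013 and ANAC071 were higher in voz1 voz2, and NAP and ANAC089 were lower. Across all genes tested 4.44% passed, 2.72% higher and 1.72% lower, so 4 of 55 is a share not far from the background of this comparison. The same holds for other counts. At an unadjusted p under 0.05 there were 12 of 55 NAC members, against 23.6% of all genes tested. Genotypes that did not overlap were found for 6 members, against 16.3% of all genes, with 4 of them higher (8.46% of all genes) and 2 lower (7.85%), and a change of at least 2-fold was estimated for 5, against 9.02%. The NAC members' median fold change was 0.16 and that of all genes tested was -0.030, with 33 of 55 members above 0, against 47.2% of all genes. The plot of fold changes by role shows most members' intervals crossing 0.

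**Figure D1:**
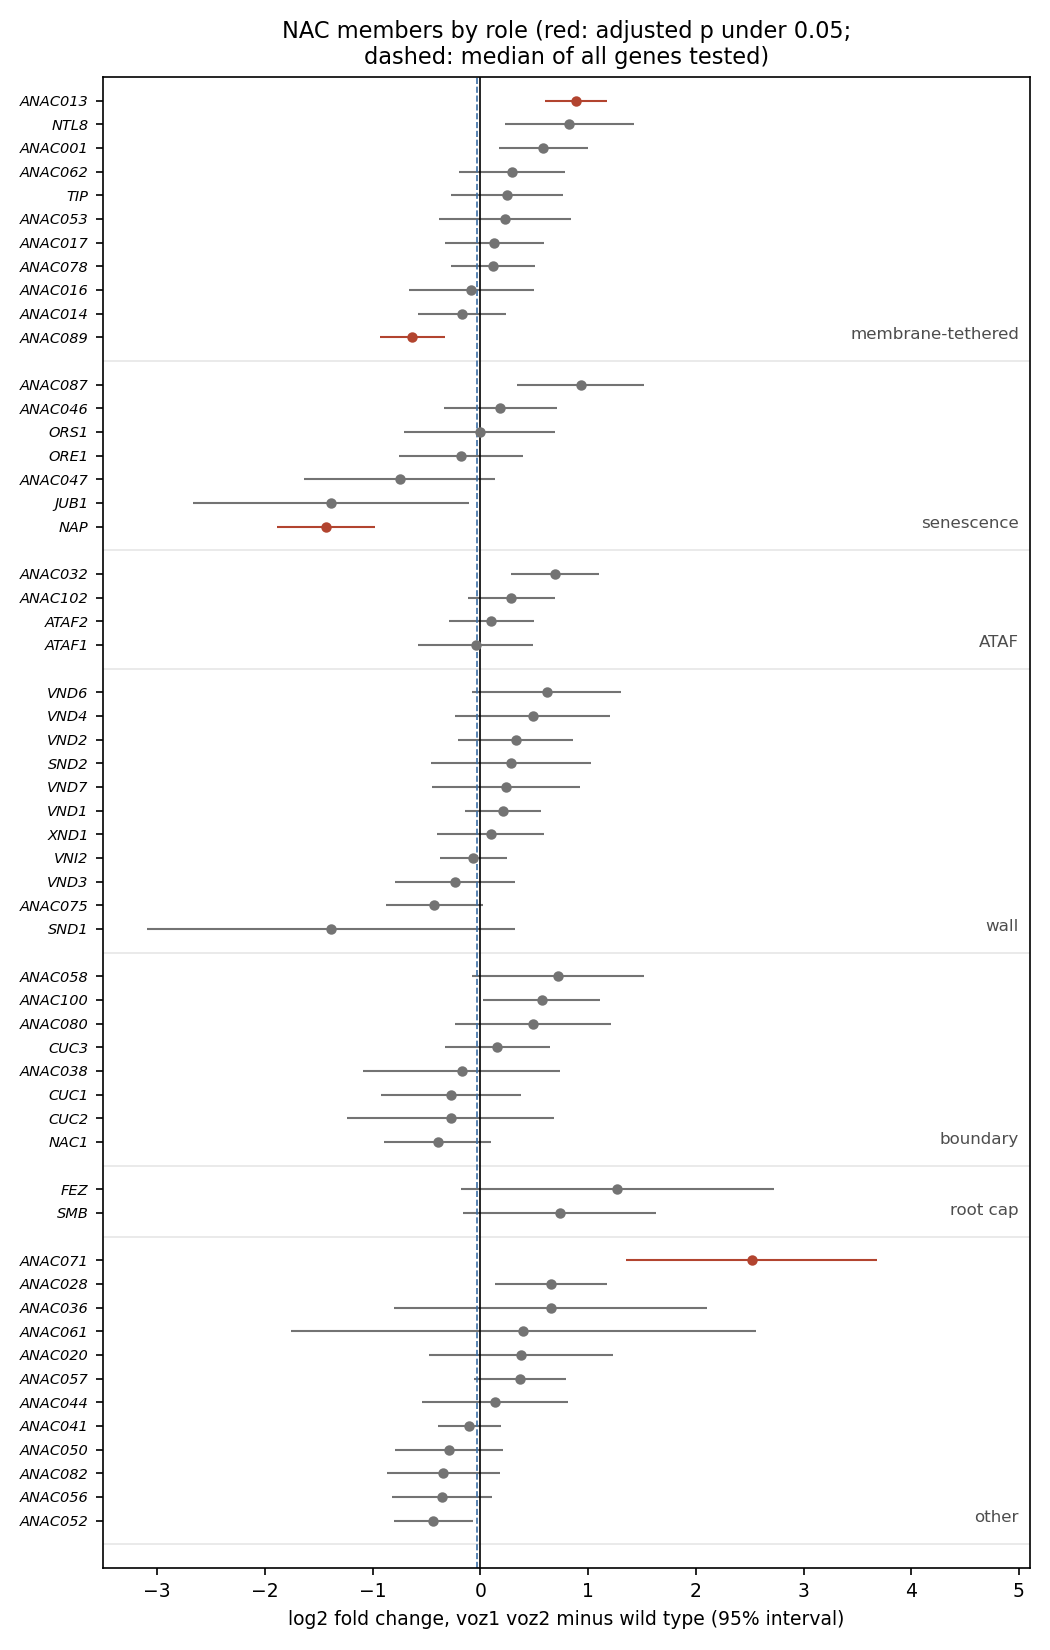
Fold changes of the 55 tested NAC members (log2, voz1 voz2 minus wild type, points with 95% intervals), grouped by role. Red points passed an adjusted p of 0.05, the dashed line is the median of all genes tested, and the 4 red members lie at 2.52 (ANAC071), 0.89 (ANAC013), -0.63 (ANAC089) and -1.43 (NAP).

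These counts moved with the setting. Of the 51 members well above background on all 8 arrays, which leaves out ANAC071, 1 was higher and 2 were lower. With slide as a block 8 NAC members were higher and 3 lower, but 16.1% of all genes then passed as well (8.13% higher, 7.95% lower). Blocking on replicate number gave 3 higher and 2 lower, against 13.5% of all genes, 6.74% in each direction. Each slide alone, with 2 arrays of each genotype, gave 0 calls by limma, 15 members having an unadjusted p under 0.05 on slide 1 (18.3% of all genes) and 7 on slide 2 (16.4%). Among all genes tested 668 were higher and 423 lower, while with normexp, run on the median signal with an offset of 50, 75 were higher and 19 lower and in the deposited values, which keep no array scaling, 30 were higher and 40 lower. No NAC member passed under either of those 2, where 7 and 4 members had an unadjusted p under 0.05 by limma. Median scaling set the median of all genes at -0.15 and that of the NAC members at 0.044. The corresponding medians were -0.37 and -0.18 in the deposited values.

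Membrane-tethered NAC factors are activated by release from the membrane, so their transcript level is only part of their regulation. Of the 11 members of this group ANAC013 rose and ANAC089 fell, and the other 9 did not pass the test. ANAC013 (AT1G32870), which is known to bind promoters of mitochondrial stress genes in retrograde signalling, stood at 0.60, 0.71, 0.84 and 0.73 in voz1 voz2, against -0.22, -0.11, -0.046 and -0.29 in wild type. The lowest mutant value was above the highest wild type value, and the rise was 0.89 (SE 0.12, adjusted p = 0.00945), a 1.85-fold difference. Its size was nearly equal on the slides, 0.85 on slide 1 and 0.93 on slide 2. The call held without any 1 array (adjusted p 0.0178 to 0.0381), but missed the threshold with median scaling (0.0512) and with normexp (0.0565).

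ANAC089 (AT5G22290), a factor described in endoplasmic reticulum stress and in fructose signalling, had 0.28, 0.34, 0.49 and 0.49 on the voz1 voz2 arrays, against 0.87, 0.97, 1.17 and 1.13 on those of wild type. It fell by 0.63 (SE 0.13, adjusted p = 0.0364), with -0.63 and -0.64 on the slides, and the genotypes did not overlap. Every single omission other than that of wild type replicate 2 ended this call (adjusted p 0.0605 to 0.107), and so did median scaling (0.0771) and normexp (0.111). ANAC001 (AT1G01010) had -0.62, -0.89, -0.14 and -0.78 in voz1 voz2, against -1.20, -1.26, -1.21 and -1.10 in wild type. Its genotypes did not overlap either, with the 4 wild type values close together and mutant replicate 3 the highest, but its fold change of 0.59 (SE 0.18, limma adjusted p = 0.0997) missed the threshold. NTL8 (AT2G27300), known from the control of flowering and germination under salt, stood at -5.01, -5.08, -4.52 and -5.72 in the mutant, against -5.58, -6.21, -5.85 and -5.99 in wild type. Mutant replicate 4 lay within the wild type range, and the fold change was 0.82 (SE 0.26, limma adjusted p = 0.108). With slide as a block both passed, ANAC001 at an adjusted p of 0.0452 and NTL8 at 0.0331, but neither passed when blocked on replicate number (0.0654 and 0.057). With normexp the fold change was 0.53 for ANAC001 and 0.16 for NTL8.

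ANAC062 (AT3G49530), linked to pathogen and endoplasmic reticulum stress responses, had 1.70, 1.50, 0.78 and 1.32 in voz1 voz2, against 1.24, 0.96, 0.81 and 1.14 in wild type, with overlapping genotypes and a fold change of 0.29 (SE 0.21, limma adjusted p = 0.454). The remaining 6 members, ANAC014, ANAC016, ANAC017, ANAC053, ANAC078 and TIP, had fold changes between -0.17 and 0.24, with adjusted p of 0.560 or more. Among them ANAC017, the endoplasmic reticulum-bound factor known to act with ANAC013 in mitochondrial retrograde signalling, had 0.13 (95% interval -0.33 to 0.59).

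**Figure D2:**
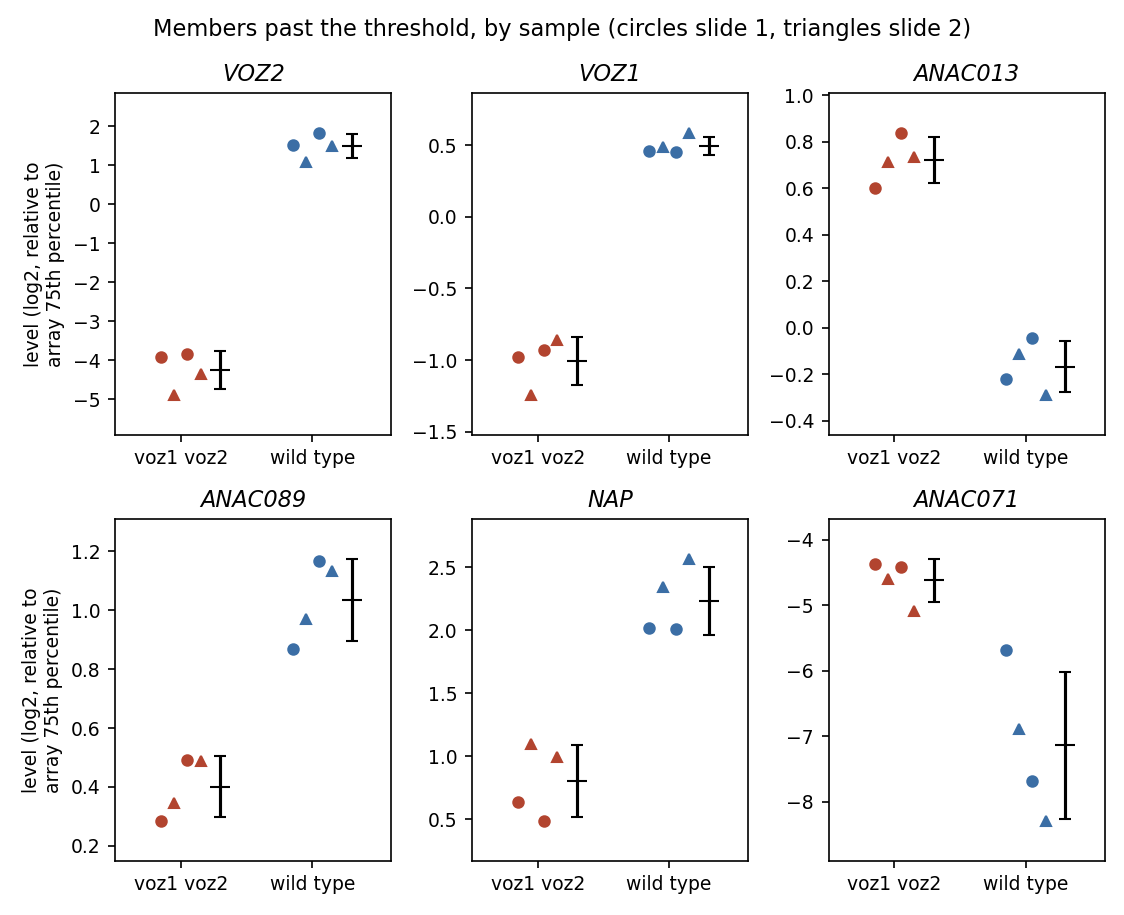
Levels (log2, relative to each array's 75th percentile) of VOZ2, VOZ1 and the 4 NAC members past the threshold, with 1 point per array, voz1 voz2 in red and wild type in blue. Horizontal marks and bars are the mean and SD (n = 4), and in every panel the genotypes do not overlap.

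Genes known to respond to mitochondrial dysfunction, several of them bound by ANAC013 or ANAC017, were examined beside these factors. The list also counts RCD1, whose protein binds ANAC013. Of 7 genes 3 rose and none fell, against 2.72% and 1.72% of all genes, and the list's median was 0.67, against -0.030 over all genes. This list and those below were chosen with these results known, so their counts are a description only. AT5G09570, which encodes a small twin-cysteine mitochondrial protein, had 0.11, -0.33, -0.081 and -0.40 in voz1 voz2, against -5.33, -4.24, -4.35 and -4.11 in wild type, a rise of 4.33 (SE 0.28, adjusted p = 6.0e-04) or 20.2-fold. AT2G21640, a marker of oxidative stress in mitochondria, had 0.67, 0.50, 0.63 and 0.41 in the mutant, against -0.44, -1.44, -0.83 and -0.55 in wild type, a rise of 1.37 (SE 0.23, adjusted p = 0.0176). AOX1A, the alternative oxidase that bypasses part of the respiratory chain, had 1.59, 2.20, 1.84 and 2.21 in the mutant, against 0.66, 1.03, 0.33 and 0.82 in wild type, a rise of 1.25 (SE 0.21, adjusted p = 0.0187). In all 3 the genotypes did not overlap.

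Within slides 1 and 2 the fold changes were 4.85 and 3.81 for AT5G09570, 1.28 and 1.45 for AT2G21640, and 1.22 and 1.28 for AOX1A. The call of AT5G09570 held without any 1 array, and with normexp its fold change was 2.81 (adjusted p 0.0128). That of AT2G21640 was lost without voz1 voz2 replicate 1, 2 or 3 (adjusted p 0.0542 to 0.0563), with median scaling (0.0543) and with normexp (0.0663). That of AOX1A was lost without voz1 voz2 replicate 2 (0.0607) or wild type replicate 1 (0.0533). NDB2, an external NADH dehydrogenase of mitochondria, had 0.67 (SE 0.41, limma adjusted p = 0.356) and overlapping genotypes. RCD1, a nuclear protein known to bind ANAC013, had -0.19 (SE 0.15, limma adjusted p = 0.486), with 3.62 to 3.84 on the voz1 voz2 arrays, against 3.64 to 4.13 on the wild type arrays. The plot of programme genes sets this list beside those of senescence, boundaries and walls.

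**Figure D3:**
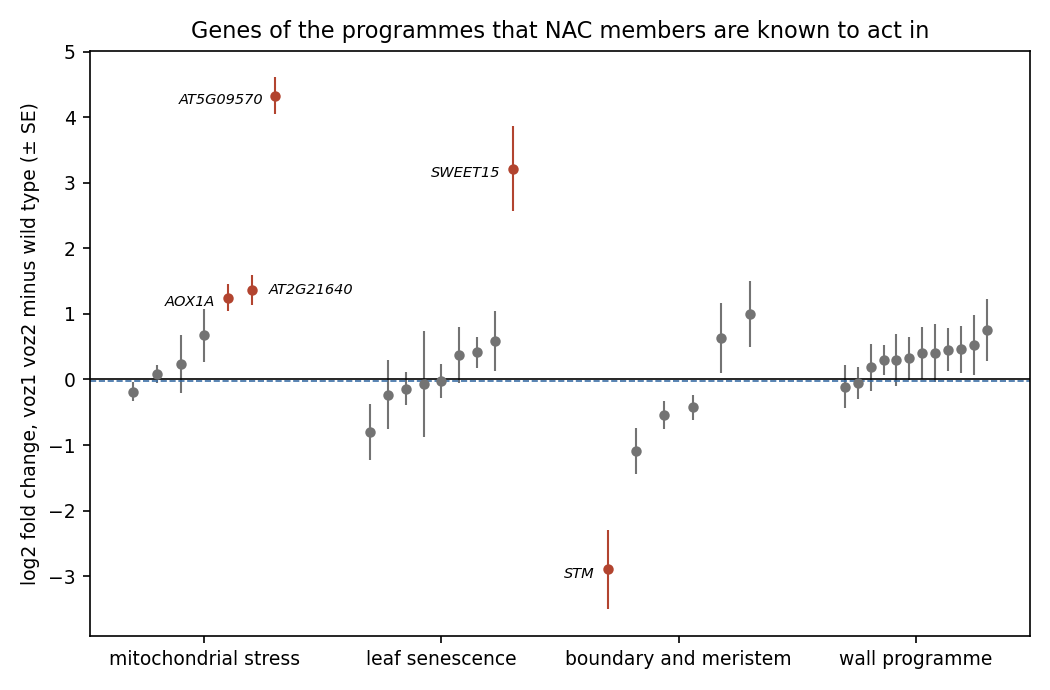
Fold changes (log2, voz1 voz2 minus wild type, points with SE) of tested genes in programmes that NAC members are known to act in, red where the adjusted p was under 0.05, with the median of all genes tested as a dashed line. In the mitochondrial stress list 3 of 7 genes are red, while in the wall programme 0 of 12 are, against 4.44% of all genes tested.

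The senescence group holds promoters of leaf ageing (NAP, ORE1, ORS1, ANAC046, ANAC047, ANAC087) and JUB1, which delays it. Of its 7 members NAP fell and the others did not pass the test, and the median fold change was -0.18. NAP (AT1G69490), which drives chlorophyll loss in ageing leaves in concert with abscisic acid, stood at 0.64, 1.09, 0.48 and 0.99 in voz1 voz2, against 2.02, 2.35, 2.01 and 2.57 in wild type. Within each genotype the slide 2 arrays were the higher ones, and on both slides the mutant was well below wild type, with fold changes of -1.45 on slide 1 and -1.41 on slide 2. The fall was 1.43 (SE 0.20, adjusted p = 0.00926), 2.70-fold, and held without any 1 array (0.018 to 0.0352). With normexp the fold change of NAP was -1.40 and its adjusted p 0.106.

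ANAC087 (AT5G18270), also known from the ordered death of root cap cells, ran the other way, with 0.99, 0.19, 1.16 and 1.22 in voz1 voz2, against 0.087, -0.040, 0.21 and -0.42 in wild type. Mutant replicate 2 was the only mutant value within the wild type range. The fold change was 0.93 (SE 0.26, limma adjusted p = 0.0784), and it passed with slide as a block (0.037) and without voz1 voz2 replicate 2 (0.0372). JUB1 (AT2G43000) had -4.67, -3.63, -4.64 and -4.17 in the mutant, against -2.09, -1.65, -4.05 and -3.78 in wild type. Wild type replicates 1 and 2 were high and replicates 3 and 4 were within the mutant range, so that a fold change close to that of NAP, -1.39, came with an SE of 0.56 and an adjusted p of 0.182. ANAC047 (AT3G04070), a neighbour of ANAC046 in gene order that is known from leaf movement under flooding, had -0.95, -1.84, -1.32 and -0.025 in voz1 voz2, against -0.88, -0.16, -0.25 and 0.14 in wild type, and a fold change of -0.75 (SE 0.39, limma adjusted p = 0.284). ANAC046, ORE1 and ORS1 lay between -0.18 and 0.19.

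Of 10 genes listed under leaf senescence, with the JUB1 target DREB2A among them, 9 were tested. In this list 1 gene rose and none fell, against 2.72% and 1.72% of all genes, with a median of -0.023. It was SWEET15, a sucrose exporter also named SAG29, at 3.90, 4.05, 4.23 and 4.74 in voz1 voz2, against -0.20, 2.65, 1.86 and -0.28 in wild type, with the wild type arrays widely spread. Its rise of 3.22 (SE 0.65, adjusted p = 0.0342) was 3.24 on slide 1 and 3.20 on slide 2, and lost the call when any array other than wild type replicates 2 and 3 was omitted (0.075 to 0.0882), with normexp (0.0968) and when dim probes were kept (0.0633). SAG113, a phosphatase gene that NAP is known to bind, had -3.57, -3.19, -2.73 and -2.72 in the mutant, against -3.03, -1.04, -2.74 and -2.18 in wild type, and -0.81 (SE 0.42, limma adjusted p = 0.292). DREB2A, a drought response factor that JUB1 is known to activate, had 0.41 (SE 0.24, limma adjusted p = 0.328). SAG12, the cysteine protease gene used as a late senescence marker, was well above background on 1 array of each genotype and was not tested. The chlorophyll breakdown genes NYC1, PAO and SGR1 had -0.23, -0.14 and -0.023, none past the threshold.

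The ATAF group, ATAF1, ATAF2, ANAC032 and ANAC102, is known from responses to drought, wounding, pathogens and toxic compounds. None of the 4 passed the test, with a median of 0.20. ANAC032 (AT1G77450) was 0.30, 0.29, 0.84 and 0.42 in voz1 voz2, against -0.34, -0.12, -0.0046 and -0.46 in wild type, and its genotypes did not overlap. Its fold change was 0.69 (SE 0.18, limma adjusted p = 0.0655), and it passed with slide (0.0341) or the replicate number (0.0328) as a block and with array weights (0.044). On the slides it had 0.74 and 0.64. ANAC102 (AT5G63790) had 3.29, 2.79, 3.36 and 3.25 in the mutant, against 2.93, 2.61, 3.07 and 2.93 in wild type, overlapping, with 0.29 (SE 0.18, limma adjusted p = 0.357). ATAF2 (AT5G08790) had 3.30, 2.82, 3.18 and 3.06 in the mutant, against 3.12, 2.63, 3.13 and 3.08 in wild type, where replicate 2 alone was low, and a fold change of 0.10 (SE 0.17, limma adjusted p = 0.766). ATAF1 was at -0.045 (95% interval -0.58 to 0.49).

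**Figure D4:**
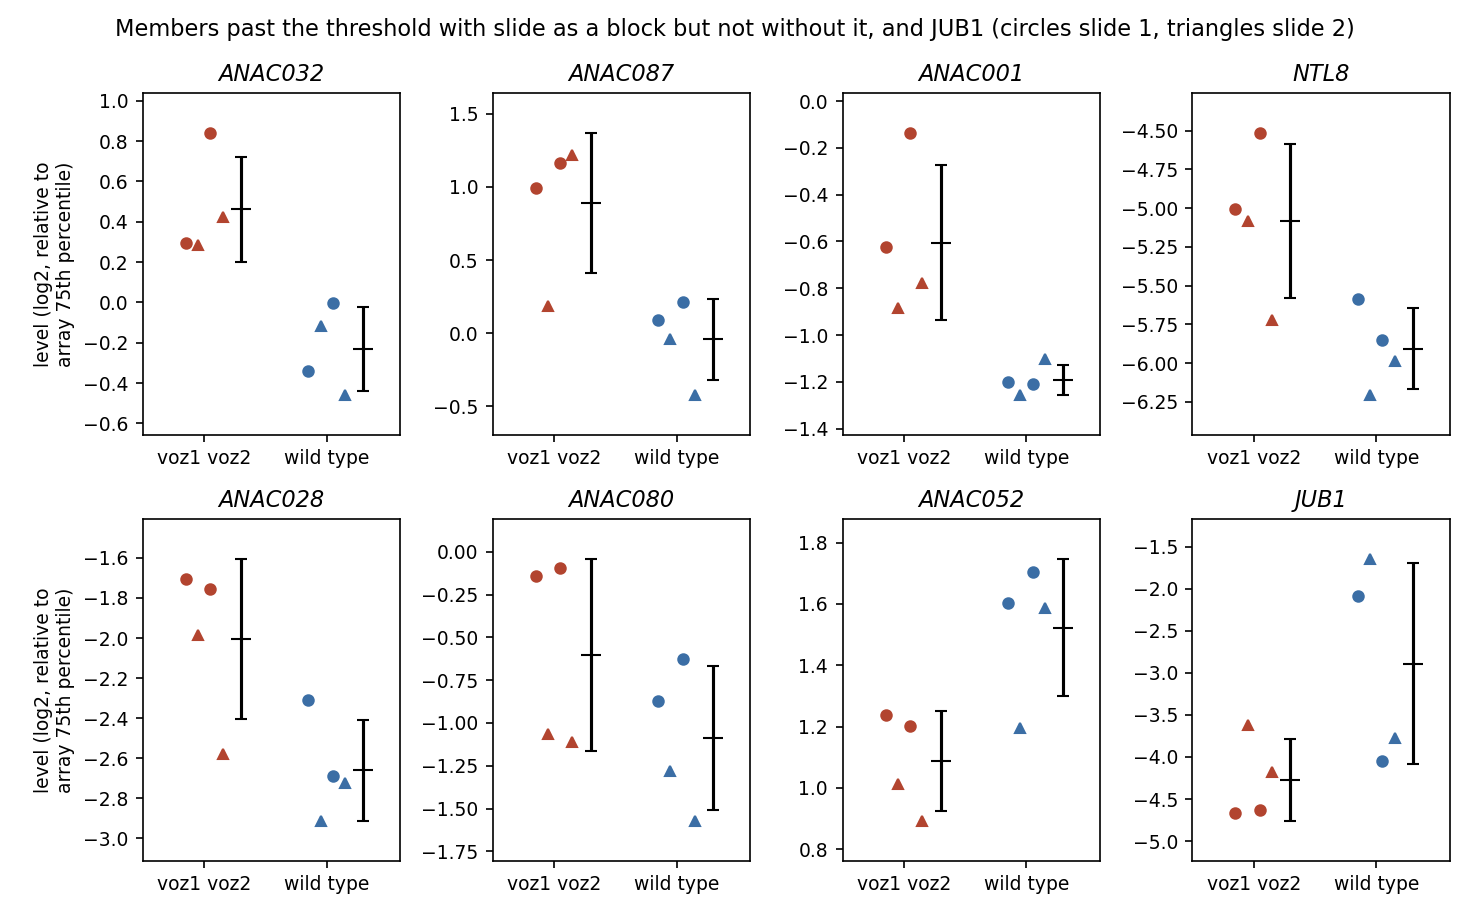
Levels (log2, relative to each array's 75th percentile) by array of the 7 members past the threshold with slide as a block but not without it, and of JUB1, with voz1 voz2 in red and wild type in blue. Horizontal marks and bars are the mean and SD (n = 4). ANAC032 and ANAC001 show no overlap between genotypes, while in ANAC080 the slide 1 arrays of both genotypes are above the slide 2 arrays.

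The wall group holds switches of secondary wall formation, the VND genes of xylem vessels and the NST genes with SND1 of fibres, with further regulators of that network. Of its 13 members 11 were tested and none passed, with fold changes above 0 in 7 and a median of 0.21. Over all genes tested 4.44% passed and 47.2% were above 0, with a median of -0.030. NST1 was well above background on no voz1 voz2 array and 1 wild type array, and NST2 on 1 voz1 voz2 and 2 wild type arrays. ANAC075 (AT4G29230), an upstream regulator of VND7, had -3.70, -3.33, -3.47 and -3.76 in voz1 voz2, against -2.96, -2.77, -3.48 and -3.35 in wild type, and -0.43 (SE 0.20, limma adjusted p = 0.233). VND6 (AT5G62380), a master switch of metaxylem vessels, had -3.01, -3.25, -2.55 and -3.60 in the mutant, against -3.43, -3.18, -4.05 and -4.22 in wild type, and 0.62 (SE 0.30, limma adjusted p = 0.259). In both genes the genotypes overlapped. SND1 (AT1G32770) was -6.26, -9.14, -6.75 and -9.22 in the mutant, against -5.74, -6.79, -7.41 and -5.90 in wild type, with 2 mutant and 3 wild type arrays well above background. Its fold change was -1.38 (SE 0.75, limma adjusted p = 0.303), made up of 0.067 on slide 1 and -2.83 on slide 2, so the slides gave opposite signs.

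The other 8, VND1, VND2, VND3, VND4, VND7, SND2, VNI2 and XND1, had fold changes between -0.23 and 0.49. XND1 and VNI2 are known as repressors of this programme, and had 0.095 and -0.064. Of 12 genes downstream of these switches, MYB regulators, cellulose synthases, laccases and xylem proteases, none passed the threshold in limma, against 4.44% of all genes. None had an unadjusted p under 0.05, against 23.6% of all genes, while 10 of the 12 had fold changes above 0, against 47.2%. The list's median was 0.36. MYB63, an activator of lignin genes, had -4.73, -3.76, -4.37 and -3.90 in voz1 voz2, against -5.02, -3.52, -5.43 and -5.79 in wild type, and 0.75 (SE 0.48, limma adjusted p = 0.377). XCP2, a xylem protease, had 0.45 (SE 0.33, limma adjusted p = 0.445). In MYB63 wild type replicates 1, 3 and 4 were below every mutant value, and replicate 2 was above them all.

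Boundary members set the borders between organs and meristem, CUC1, CUC2 and CUC3 in the shoot, while NAC1 is known from lateral root formation. ANAC100, ANAC080, NAC1, CUC1 and CUC2 are known targets of the microRNA miR164. None of the 8 passed the test, and the median was -0.0074. ANAC100 (AT5G61430) had -3.42, -2.98, -3.12 and -3.19 in voz1 voz2, against -3.59, -3.26, -3.76 and -4.36 in wild type, and 0.57 (SE 0.24, limma adjusted p = 0.195). ANAC058 (AT3G18400) had -0.21, -0.74, 0.28 and -0.84 in the mutant, against -0.61, -0.75, -1.12 and -1.93 in wild type, and 0.72 (SE 0.35, limma adjusted p = 0.254). NAC1 (AT1G56010) had -0.49, -0.65, -0.046 and 0.087 in the mutant, against 0.083, 0.49, -0.16 and 0.071 in wild type, and -0.40 (SE 0.22, limma adjusted p = 0.309). All 3 had overlapping genotypes. ANAC080 (AT5G07680) had -0.14, -1.07, -0.093 and -1.11 in voz1 voz2, against -0.87, -1.28, -0.62 and -1.57 in wild type, and 0.49 (SE 0.32, limma adjusted p = 0.392). Here all slide 1 arrays were above all slide 2 arrays, whatever the genotype, and with slide as a block its adjusted p was 0.0391. CUC1, CUC2, CUC3 and ANAC038 lay between -0.28 and 0.16, with CUC2 at -0.80 on slide 1 and 0.25 on slide 2.

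Among 6 genes listed under boundaries and meristems, with the root cap genes BRN1 and BRN2 among them, 1 fell and none rose. The shares of all genes were 1.72% and 2.72%, and the list's median was -0.49. STM, the homeobox gene that maintains the shoot meristem and is activated by CUC1 and CUC2, had -4.49, -3.64, -6.14 and -3.84 in voz1 voz2, against -1.06, -2.43, -2.25 and -0.77 in wild type. The genotypes did not overlap, and the fall was 2.90 (SE 0.61, adjusted p = 0.0374, 7.45-fold), with -3.66 on slide 1 and -2.14 on slide 2. Omitting any array other than wild type replicate 2 ended the call (0.0572 to 0.0991), as did keeping dim probes (0.0694). With normexp the fold change was -1.50 (adjusted p 0.151). LOB, a boundary gene, had -3.51, -2.62, -2.90 and -1.97 in the mutant, against -1.57, -2.20, -1.77 and -1.10 in wild type, and -1.09 (SE 0.35, limma adjusted p = 0.113). KNAT6, a homeobox relative of STM at boundaries, had -0.54 (SE 0.21, limma adjusted p = 0.168). The list also holds BRN1 and BRN2, themselves NAC genes of the root cap, at 0.997 and 0.64, neither past the threshold. They were the 2 of the list above 0, and both also count among the further NAC genes given at the end.

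FEZ and SMB are known to act against each other in the division of root cap stem cells. FEZ (AT1G26870) had -5.03, -5.55, -3.80 and -5.39 in voz1 voz2, against -5.68, -5.01, -6.25 and -7.92 in wild type, and 1.27 (SE 0.63, limma adjusted p = 0.267). It was well above background on 4 mutant and 2 wild type arrays. SMB (AT1G79580) had -4.98, -5.14, -3.95 and -4.95 in the mutant, against -5.44, -4.54, -5.83 and -6.17 in wild type, and 0.74 (SE 0.39, limma adjusted p = 0.296). Both genes were highest on mutant replicate 3 and overlapped between genotypes. The root markers gave their highest mean, 1.07, on that same array and their lowest, -1.43, on wild type replicate 4, and their part in these values was not tested. Without wild type replicate 4 the fold changes were 0.70 for FEZ and 0.51 for SMB. With normexp they were 0.050 for FEZ and 0.00029 for SMB.

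The remaining 13 members have diverse or little-known roles, and 12 were tested, of which ANAC071 rose and none fell. ANAC071 (AT4G17980), known from the rejoining of cut stem tissue, stood at -4.37, -4.60, -4.42 and -5.09 in voz1 voz2, against -5.69, -6.89, -7.68 and -8.30 in wild type. The mutant values were close together and all above the wild type values, which were widely spread. The rise was 2.52 (SE 0.51, 95% interval 1.35 to 3.68, adjusted p = 0.0337), 5.73-fold as estimated, with 2.29 on slide 1 and 2.75 on slide 2. The probe was well above background on 4 mutant but only 2 wild type arrays, so the size rests on values near background. ANAC071 thus passed the filter through the mutant arrays, where it is high, and its place among the 4 calls supports nothing. With normexp, which adds an offset of 50 to each signal, the fold change was 0.41 with an adjusted p of 0.967. The call was lost without any 1 of the voz1 voz2 arrays and without wild type replicate 3 or 4 (0.0572 to 0.0924), when dim probes were not filtered (0.0631), and with array weights (0.0569).

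ANAC028 (AT1G65910) had -1.71, -1.98, -1.75 and -2.58 in voz1 voz2, against -2.31, -2.91, -2.69 and -2.72 in wild type, and 0.65 (SE 0.23, limma adjusted p = 0.134). ANAC052 (AT3G10490), which is known to bind a histone demethylase together with its neighbour ANAC050, had 1.24, 1.01, 1.20 and 0.89 in the mutant, against 1.60, 1.20, 1.70 and 1.59 in wild type, and -0.44 (SE 0.16, limma adjusted p = 0.149). The genotypes overlapped in both. In ANAC028 mutant replicate 4 was below wild type replicate 1, and in ANAC052 wild type replicate 2 was below mutant replicates 1 and 3. Both genes passed with slide as a block (limma adjusted p 0.0401 and 0.042). ANAC057 (AT3G17730) had -4.29, -3.88, -4.18 and -4.68 in voz1 voz2, against -4.62, -4.44, -4.76 and -4.69 in wild type, and 0.37 (SE 0.19, limma adjusted p = 0.27). The other 8 tested members had fold changes between -0.36 and 0.65, and ANAC025 was well above background on none of the 8 arrays.

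**Figure D5:**
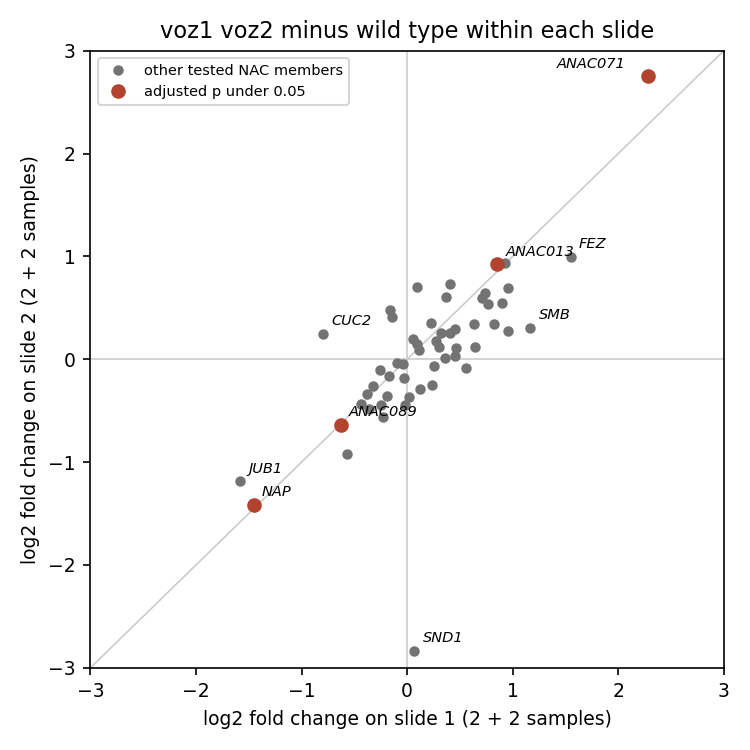
Fold changes (log2, voz1 voz2 minus wild type) of the 55 tested NAC members on slide 1 (x axis) and slide 2 (y axis), each from 2 arrays of each genotype, with the 4 members past the threshold in red and the line of equal values in grey. The 4 lie near the line, while SND1 has 0.067 on slide 1 and -2.83 on slide 2.

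Across the slides 46 of the 55 tested NAC members had the same sign on both, against 80.8% of all genes, with NAC medians of 0.22 for slide 1 and 0.11 for slide 2. The plot of slide 1 against slide 2 shows the called members close to the line of equal values. Regardless of genotype, 8 NAC members were higher on all 4 slide 1 arrays than on all 4 slide 2 arrays, 1 (ANAC017) was higher on slide 2, and 46 overlapped between slides. Over all genes with a value on every array 12.4% were higher on slide 1 and 12.8% on slide 2. Some members directly follow each other in RefSeq's order of protein-coding genes. In the run ANAC050, ANAC052 and ANAC053 the fold changes were -0.29, -0.44 and 0.23, in the pair ANAC046 and ANAC047 they were 0.19 and -0.75, and in ANAC016 and ANAC017 -0.083 and 0.13.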

How the data were processed

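Groups and replicate numbers came from the sample titles. Per the file headers, the authors' scanner output gives intensity per spot, read with Agilent Feature Extraction 9.1.3.1 (a version the submitters' processing notes also name), and its processed signal is background-subtracted. The deposited series table is in natural log units, each value equal to the processed signal's natural log minus a constant of 6.91 on voz1 voz2 and 6.42 on wild type arrays, with medians of -2.67 to -1.28. It keeps no array scaling, the sources used here do not explain the constants, and it was used as an alternative.

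Log2 processed signals minus each array's 75th percentile over the 37478 non-control probes were compared. Spots with an outlier flag (9 to 111 per array) were left out. A probe was kept if 4 or more of the 8 arrays had it well above background. The brightest probe stood for a locus, and a probe without a locus name stood for itself. In R 4.3.3, lmFit and eBayes of limma 3.58.1 were run on all 24599 features, tested on simulated data first. Within a genotype arrays correlated at 0.96 to 0.99. Deviations of same-numbered arrays correlated at 0.32, 0.51, 0.46 and 0.61, each above the limit of 0.1 set for pairing. Differently numbered arrays of the 2 genotypes correlated at 0.27 to 0.54 on the same slide and at -0.59 to -0.23 across slides. Same-numbered arrays always share a slide, so this check cannot tell pairing by number from a shared slide.

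Names come from RefSeq symbols and synonyms, and the sources used here do not name the array design's build. The members, role groups and lists (mitochondrial stress, leaf senescence, boundary and meristem, wall programme, root and shoot markers) were chosen with earlier results of these data known. Values by array are given for the VOZ genes, called NAC members and up to 3 others per role with the smallest p, and ANAC080 was added after its values were seen. From each list called genes and up to 2 others are given, and SOT12, UGT74E2, NYC1, PAO, SGR1, BRN1 and BRN2 were added likewise. Alternatives were quantile and median scaling, normexp (offset 50, on the median signal in place of the planned mean signal), no filter or one on all 8 arrays, probe means, eBayes trend and robust, array weights, slide and replicate blocks, each slide alone, the deposited values and each array left out.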

Additional observations from a re-analysis of the deposited data

Results flagged for a closer look

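In 80 sets of 4 arrays, 1 genotype of 1 named gene each, 3 had a value set apart from the other 3 by more than Dixon's limit at 95%, and chance gives about 1 in 20. ATAF2 was 2.63 in wild type replicate 2, against 3.08 to 3.13 in the other wild type replicates. SMB was -3.95 in voz1 voz2 replicate 3, against -5.14 to -4.95 in the other mutant replicates. NDB2 was 0.66 in wild type replicate 4, against 2.04 to 2.15 in the other wild type replicates.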

How the results depend on the processing

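Without 1 array at a time the fold change of VOZ2 lay between -5.88 and -5.53 and that of VOZ1 between -1.55 and -1.42, both past the threshold, while 1 to 2 NAC members were called higher and 1 to 2 lower. With the replicate number as a block, which the pairing check cannot tell from a shared slide, 3 were higher and 2 lower. The only member's call that this block changed was that of ANAC032. With slide as a block 8 were higher and 3 lower. Median scaling and no filter each left 1 higher and 1 lower, a filter on all 8 arrays left 1 higher and 2 lower, and normexp, each slide alone and the deposited values left 0 and 0. On slide 1 alone VOZ2 had -5.56 (0.0737) and VOZ1 -1.41 (0.0992), and on slide 2 -5.93 (0.0755) and -1.59 (0.158), limma adjusted p in parentheses, where fewer samples enter the fit. In the deposited values VOZ1 had -1.84 (0.143).

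The sign turned for ANAC062 (-0.049), ANAC102 (-0.049) and ATAF2 (-0.24) in the deposited values, for ATAF2 with median scaling (-0.014), and for SND1 on slide 1 alone (0.067). ATAF2 lay between -0.019 (without wild type replicate 2, the only omission that turned its sign) and 0.19 without 1 array at a time. None of these 4 passed the threshold in any setting. In the deposited values, which have a different constant subtracted per genotype, the median of all genes was also lower, -0.37 against -0.030. With median scaling it was -0.15. Any cause beyond these shifts of all genes was not tested. Quantile normalization, probe means, and eBayes trend and robust changed no member's call, while array weights lost ANAC071 and added ANAC032. Of the dim probes, ANAC025, NST1 and NST2 were not tested and ANAC061, ANAC071, FEZ and SND1 were not well above background on every array.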

Other observations

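A further 42 genes carry a NAC name in the RefSeq gene table but are not among the 58, and they were examined after their values were seen. Of these 28 were tested, 4 rose and none fell, against 2.72% and 1.72% of all genes. When slide or replicate number was a block 7 rose and 1 fell, against 8.13% and 7.95% of all genes with slide and 6.74% in each direction with the number. NAC011 had -3.55, -3.64, -3.63 and -4.23 in voz1 voz2, against -6.41, -6.12, -7.11 and -6.96 in wild type, a rise of 2.89 (SE 0.26, limma adjusted p = 0.00179). NTM1, a membrane-tethered factor known from the control of cell division, had -1.16, -1.51, -0.97 and -1.25 in the mutant, against -2.06, -1.76, -2.13 and -2.56 in wild type, a rise of 0.91 (SE 0.20, limma adjusted p = 0.0449). In both the genotypes did not overlap. NAC060, the 1 that fell with either block, had -2.50 (SE 0.58, limma adjusted p = 0.0522 without a block), also without overlap. It was well above background on 2 mutant and 4 wild type arrays. NAC045 and NAC048 rose by 2.27 and 1.18, each well above background on 4 mutant arrays and 1 wild type array, while NAC011 was so on 4 and 3. NAC011, NAC045 and NAC048 were thus kept through the mutant arrays, where they are high, and NAC060 through the wild type arrays. The counts above therefore support nothing. The other alternatives were not run for these genes.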
